A study of Mus musculus with 6 samples.

Results

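The genes described here are the interferon-induced genes and the factors that regulate them, as measured by bulk RNA-Seq in mouse iWAT. Members were chosen by symbol alone from the rows analysed here: symbols that start with *Ifit*, *Ifi*, *Oas*, *Gbp* or *Irgm*, or with *Irf* or *Stat* and a digit, together with a short list of further interferon-response genes (*Isg15*, *Isg20*, *Mx1*, *Rsad2*, *Usp18*, *Ddx58*, *Dhx58*, *Iigp1*, *Igtp*, *Bst2*, *Zbp1* and *Xaf1*) and the interferon receptors. This gave 69 symbols of the 19509 in the count table, and the row with the highest total stood for a symbol that had several rows. All 6 mice were C57BL/6, carried a floxed *Lexis* allele on both chromosomes (*Lexis* fl/fl) and were fed a Western diet for 12 weeks. The 3 mice labelled *Lexis*-AdKO also carried Cre driven by the adiponectin promoter, which removes *Lexis*, a long noncoding RNA, from adipocytes and leaves it in the other cells of the depot. The 3 mice labelled *Lexis*-AdWT were Cre-negative littermates. The study states an age range for most of its mice, and the age and sex of these 6 are not given in the sources used here.

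Interferons are secreted proteins that cells make when they sense viral or other foreign nucleic acid, and immune cells make them on activation. Type I interferons bind the receptor pair Ifnar1 and Ifnar2, and interferon gamma binds Ifngr1 and Ifngr2. Both receptors act through Jak kinases on Stat proteins, which with Irf proteins enter the nucleus and turn on a common set of antiviral and antigen-presentation genes. In adipose tissue, adipocytes, endothelial cells and resident immune cells all carry these receptors.

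Many of these genes carry a short DNA element, the interferon-stimulated response element (ISRE), next to their start site. The element was searched as the letters GAAA, any 2 bases and GAAA again, on both strands in the RefSeq promoters of GRCm38.p6, from 250 bases before the start of a gene to 50 bases after it. These letters stood in 3.44% of all 32851 promoters, and in 3.99% of the 27025 genes with a promoter entry. An entry was found for 52 of the 69 members, and 23 of these (44.2%) held the letters. The second element of the pathway, the gamma-activated site bound by Stat dimers, was searched as TTCNNNGAA and stood in 16 of the 52 members (30.8%) against 9.55% of all genes. Matches of the ISRE letters could overlap one another, as in *Isg15*, *Irgm1* and *Bst2*. A match is a run of letters and not evidence that a factor binds there.

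The 200 bases before the start site are printed for 6 induced members that all held a match and for 1 receptor, *Ifngr1*, whose window held no match. Induced members without a match, such as *Ifit2*, *Xaf1*, *Ifi44* and *Oasl2*, are described below but not printed. The coordinates are those of GRCm38.p6, a different build from the mm9 build of the counts, and each sequence runs 5′ to 3′ on the strand of the gene. Capitals mark the ISRE letters on either strand.
Ifit1, chr19:34640689-34640888, plus strand: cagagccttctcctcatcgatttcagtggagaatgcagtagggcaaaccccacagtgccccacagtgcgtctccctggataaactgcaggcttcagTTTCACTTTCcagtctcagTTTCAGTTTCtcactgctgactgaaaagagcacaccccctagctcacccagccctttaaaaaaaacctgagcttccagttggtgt
Ifit3, chr19:34583329-34583528, plus strand: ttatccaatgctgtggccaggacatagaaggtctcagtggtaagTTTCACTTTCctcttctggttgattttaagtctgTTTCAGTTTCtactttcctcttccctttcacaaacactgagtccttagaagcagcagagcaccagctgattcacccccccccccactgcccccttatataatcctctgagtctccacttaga
Isg15, chr4:156200819-156201018, minus strand: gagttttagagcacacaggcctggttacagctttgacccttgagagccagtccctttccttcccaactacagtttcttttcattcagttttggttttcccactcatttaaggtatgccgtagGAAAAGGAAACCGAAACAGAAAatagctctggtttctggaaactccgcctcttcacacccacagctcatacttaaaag
Gbp2, chr3:142620463-142620662, plus strand: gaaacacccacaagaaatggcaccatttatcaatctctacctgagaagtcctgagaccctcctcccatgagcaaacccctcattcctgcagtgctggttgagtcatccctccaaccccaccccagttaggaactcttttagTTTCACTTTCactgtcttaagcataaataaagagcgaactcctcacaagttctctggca
Irgm1, chr11:48871421-48871620, minus strand: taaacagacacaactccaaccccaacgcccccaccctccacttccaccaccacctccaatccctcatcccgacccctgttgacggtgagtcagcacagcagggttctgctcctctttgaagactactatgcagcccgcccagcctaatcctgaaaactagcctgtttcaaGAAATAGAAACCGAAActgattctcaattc
Bst2, chr8:71537473-71537672, minus strand: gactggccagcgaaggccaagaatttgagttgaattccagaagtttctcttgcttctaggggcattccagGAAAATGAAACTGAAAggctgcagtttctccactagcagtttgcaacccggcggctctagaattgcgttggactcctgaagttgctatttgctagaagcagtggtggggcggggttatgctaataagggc
Ifngr1, chr10:19591749-19591948, plus strand: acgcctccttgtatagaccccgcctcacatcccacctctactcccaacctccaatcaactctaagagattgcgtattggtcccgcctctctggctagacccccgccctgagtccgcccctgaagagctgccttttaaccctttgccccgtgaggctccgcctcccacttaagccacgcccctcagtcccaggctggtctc
The window of *Isg15* held 3 matches that overlap in 1 run, between 57 and 78 bases before the start. In *Ifit1* and *Ifit3* there were 2 separate matches on the opposite strand, 76 to 104 bases before the start in *Ifit1* and 113 to 156 bases in *Ifit3*. The single match of *Gbp2* lay 50 to 59 bases before the start. Among the members with enough counts for a test, 16 of 26 induced genes with an entry (61.5%) and 2 of 13 receptors and factors (15.4%) held the letters. The gamma-activated site stood in 8 of these 26 (30.8%) and 5 of these 13 (38.5%).

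Libraries held between 14470542 and 17882713 counts, so that a count of 0 allows for up to 3 counts, or 0.168 to 0.207 CPM (counts per 1e6), a limit for counting error alone. All CPM values below are scaled by TMM in edgeR. The targeted gene was looked at first. RefSeq places *Lexis1* on the minus strand between *Abca1* and *4930522O17Rik*, where the mm9 annotation has the lincRNA *4930412L05Rik*, and that row had 8, 9 and 8 counts under the label AdWT and 21, 11 and 13 under the label AdKO (log2 fold change 0.87, adjusted *p* = 0.851 by edgeR). The label AdKO was therefore not matched by a lower count of the targeted row, and the names AdWT and AdKO below stand for the labels, also wherever a direction is given. The row holds few counts and does not separate the exons of the gene, so it does not show that labels were exchanged, and the study's own qPCR of *Lexis* was not used here. Of the thermogenic genes that the study followed in this depot, *Ucp1* had 25, 8 and 7 counts under the label AdWT and 21, 58 and 67 under the label AdKO (log2 fold change 1.85, adjusted *p* = 0.851 by edgeR). *Cox8b* had 769, 665 and 498 counts against 811, 1100 and 982 (log2 fold change 0.60, adjusted *p* = 0.847 by edgeR). Adipocyte markers summed to 46145, 50247 and 54601 CPM in AdWT and to 42007, 41470 and 41339 CPM in AdKO, so that the groups do not overlap. *Fabp4* made up 64.1% to 72.1% of these sums, and without it they were at 14323, 16589 and 19607 CPM against 13197, 11561 and 14174. Of the 6 adipocyte markers tested, 5 had a log2 fold change below 0 and *Plin1* one of 0.10, and none passed the test. Summed skeletal muscle markers were 34.7, 166 and 12.4 CPM in AdWT replicates 1 to 3 and between 2.89 and 3.48 CPM in AdKO.

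AdWT replicate 1 stood apart from the other 5 libraries for the induced members, so log2 fold changes without it are given beside the results it touches. It was the highest of the 6 libraries for 24 of the 46 members tested (52.2%), against 14.6% of all 9872 rows tested. AdWT replicate 2 was the lowest library for 15 of the 46 (32.6%), against 15.7% of all rows. Ratios of AdWT replicate 1 to the other AdWT libraries therefore also hold those low values. AdWT replicate 1 was picked out after the values had been seen, and no test is attached to these shares.

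Of the 69 members, 8 had a count of 0 in every library (*Gbp3*, *Gbp5*, *Gbp6*, *Ifi202b*, *Ifi27*, *Irf3*, *Irf4* and *Oas1e*), 15 had some counts but too few for a test, and 46 were tested. None of the 46 passed the filter through 1 group alone. A symbol listed at 0 cannot be read as a silent gene in this table, since 31.8% of symbols with a single row, *Irf3* among them, were at 0, and how reads shared between rows were counted is not given in the sources used here. Of the 15 members that were not tested, *Zbp1*, a sensor of Z-form nucleic acid, had 10, 5 and 7 counts in AdWT and 5, 7 and 9 in AdKO. *Irf9*, the DNA-binding partner of Stat2, had 5, 7 and 4 counts in AdWT and 6, 4 and 8 in AdKO. *Iigp1*, an immunity-related GTPase that attacks the vacuoles of intracellular parasites, had 9, 7 and 20 counts in AdWT and 5, 1 and 5 in AdKO. *Rsad2*, the antiviral enzyme viperin, had at most 4 counts in a library. *Mx1*, whose protein is defective in C57BL/6 mice, had at most 3. *Stat3*, *Irf7*, *Irf8* and *Mx2* were not analysed here.

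No member passed the test between the groups after adjustment. By the quasi-likelihood test of edgeR, adjusted over all 9872 rows (Benjamini-Hochberg), 0 of the 46 members had an adjusted *p* under 0.05, and the share over all rows was also 0.0% (smallest adjusted *p* 0.206 over all rows and 0.851 over the members). At an unadjusted *p* under 0.05, edgeR called 0 of the 46 members and 566 rows, which is 5.73% of those tested (2.76% higher in AdKO and 2.98% lower). DESeq2, with 61 members tested, called none after adjustment and 2 members, against 2.42% of all rows, at an unadjusted *p* under 0.05, *Ifi205* and the barely counted *Iigp1*. The log2 fold change (AdKO over AdWT) was above 0 for 21 members and below 0 for 25, with a median of -0.02 against 0.0071 over all rows. All 3 libraries of one group lay above all 3 of the other for 5 members (10.9%), *Ifitm2*, *Ifitm6* and *Ifi205* in the direction of AdKO and *Stat5b* and *Isg20* in the direction of AdWT, against 11.9% of all rows (6.16% with AdKO higher and 5.72% with AdKO lower). That share is close to the background. The p-values measure only the spread between these 3 and 3 mice, and in whole tissue fewer cells of a type and less RNA per cell cannot be told apart.

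**Figure D1:**
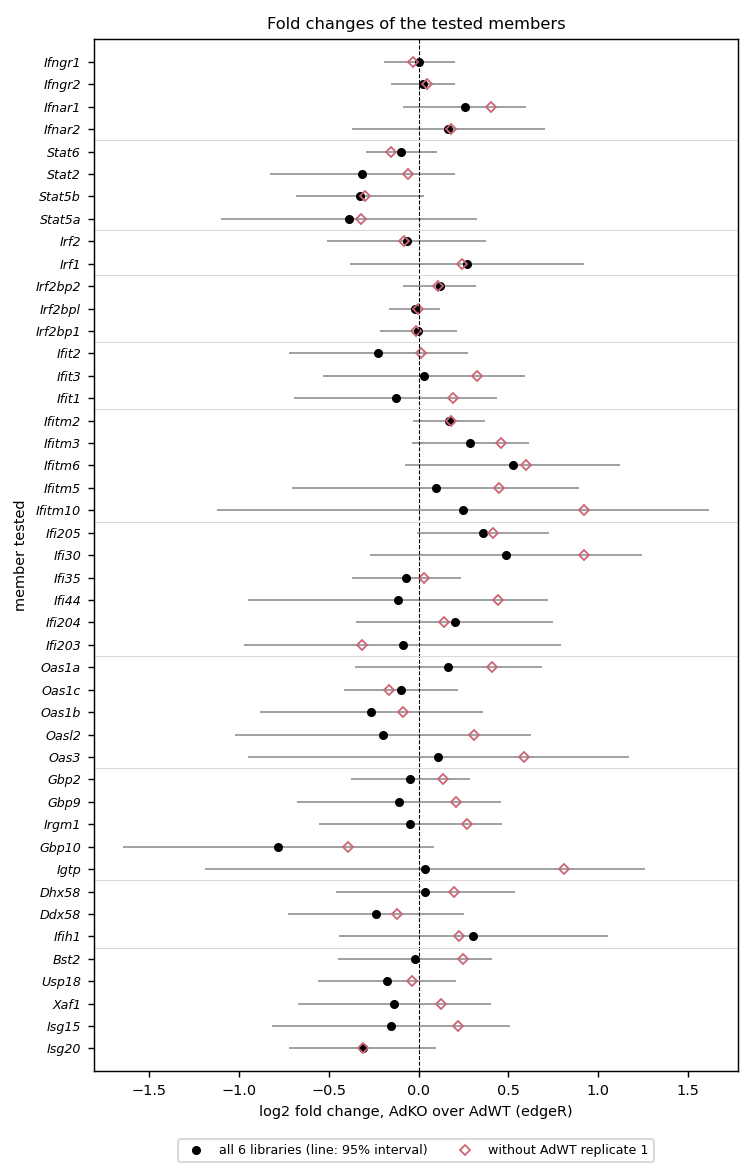
Log2 fold change (AdKO over AdWT, edgeR) of 45 of the 46 members tested, grouped by role, with the estimate from all 6 libraries as a filled circle, its 95% interval as a line and the estimate without AdWT replicate 1 as an open diamond. Every line crosses 0, and the diamonds of most induced genes lie to the right of their circles: 25 estimates are below 0 with all libraries and 15 without that replicate.

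The receptors were counted at levels that differed widely from one another and little between the groups. Per kilobase of exon, *Ifngr1*, the ligand-binding chain of the interferon gamma receptor, lay between 234 and 271 CPM per kb over the 6 libraries, its partner *Ifngr2* between 35.2 and 40.5, and the type I chains *Ifnar1* and *Ifnar2* between 4.27 and 6.80 and between 0.754 and 1.23. The ranges do not overlap, so the order *Ifngr1*, *Ifngr2*, *Ifnar1*, *Ifnar2* held in every library. *Ifnar1* and *Ifnar2* each have 3 rows in the table, and reads in the other rows are not in these values. In CPM, *Ifngr1* was at 666, 665 and 772 in AdWT and 696, 684 and 729 in AdKO, which is 701 ± 61.6 against 703 ± 23.3 (SD, n = 3 each). Its log2 fold change was 0.0039 with a 95% interval from -0.19 to 0.20, and its sign depended on the scaling. *Ifngr2* was at 124 ± 6.26 CPM in AdWT and 126 ± 8.09 in AdKO. *Ifnar1* had the values 37.1, 31.3 and 25.1 CPM in AdWT and 34.8, 40.0 and 37.0 in AdKO (log2 fold change 0.26, 95% interval -0.09 to 0.60, edgeR adjusted *p* = 0.853). The groups overlap, since AdWT replicate 1 lay above AdKO replicates 1 and 3, and with a library left out the value lay between 0.12 (without AdWT replicate 3) and 0.40 (without AdWT replicate 1). *Ifnar2* rested on 44 to 70 counts a library, and its log2 fold change was 0.17 (95% interval -0.37 to 0.71) and turned to -0.07 without AdKO replicate 1.

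The 4 Stat factors tested, *Stat2*, *Stat5a*, *Stat5b* and *Stat6*, all had a log2 fold change below 0, and none passed the test. *Stat2*, which pairs with Irf9 downstream of the type I receptor, was at 9.47, 5.61 and 6.41 CPM in AdWT and 5.49, 5.79 and 6.0 in AdKO. A single library, AdWT replicate 1, lay well above the rest, and the log2 fold change of -0.31 (95% interval -0.83 to 0.20) became -0.06 without it. *Stat5b*, which carries growth hormone and cytokine signals more than interferon signals, was at 5.29, 5.13 and 4.88 CPM in AdWT and 3.98, 4.21 and 4.02 in AdKO. The groups do not overlap and the spread within each was small, yet with 58 to 86 counts a library the log2 fold change of -0.33 (95% interval -0.68 to 0.03) had an edgeR adjusted *p* of 0.851, and the two-sided exact permutation test gave *p* = 0.1, the smallest value that 3 against 3 allows. Without AdWT replicate 1 it was -0.30. Its neighbour *Stat5a* had only 9 to 17 counts a library in the row used, which held 53.0% of the counts of that symbol, and its log2 fold change was -0.39 (95% interval -1.10 to 0.33), and -0.32 without AdWT replicate 1. *Stat6*, the factor of the interleukins that drive alternative macrophage activation, was at 471 ± 40.8 CPM in AdWT and 441 ± 20.4 in AdKO (log2 fold change -0.09).

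Of the Irf factors, *Irf1*, an activator induced by interferon gamma, was at 1.84 ± 0.333 CPM in AdWT and 2.22 ± 0.656 in AdKO (SD, n = 3 each). Its log2 fold change of 0.27 (95% interval -0.38 to 0.92) had 26 to 43 counts a library behind it and was 0.016 without AdKO replicate 1. *Irf2*, which competes with Irf1 for the same sites, was at 2.60 ± 0.247 and 2.49 ± 0.238 CPM. The cofactors *Irf2bp1*, *Irf2bp2* and *Irf2bpl* differed little between libraries, with log2 fold changes between -0.02 and 0.12 and the highest library at most 1.25 times the lowest.

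**Figure D2:**
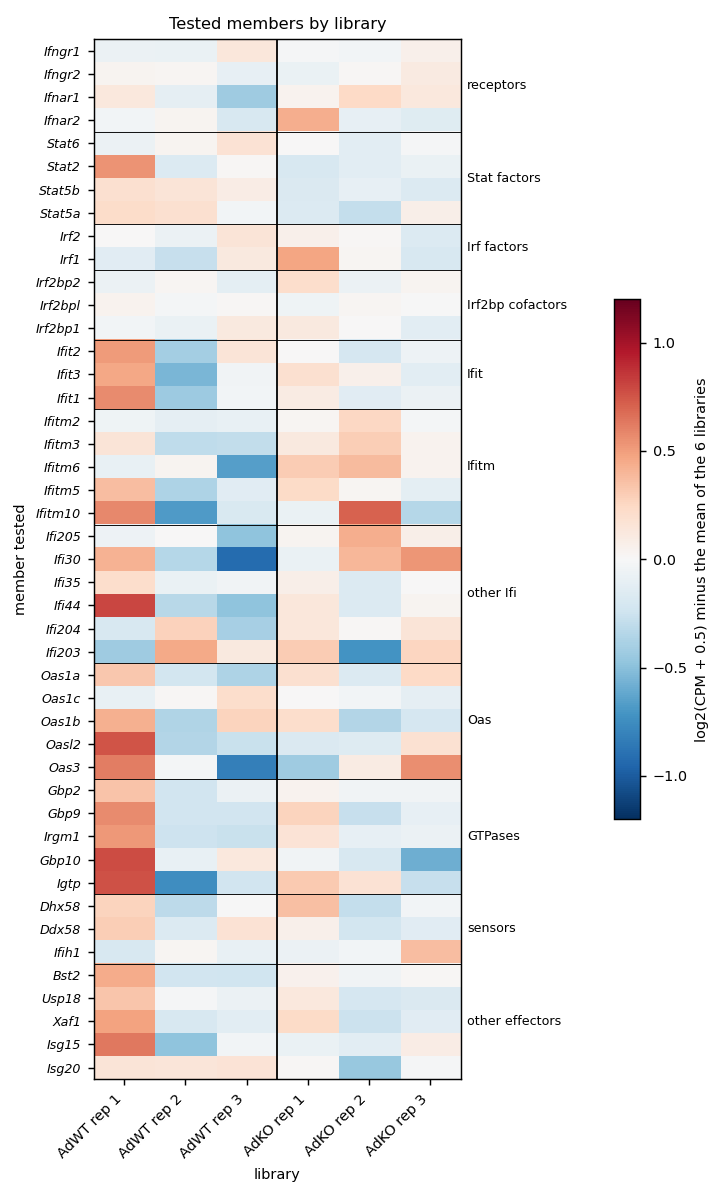
Level of 45 of the 46 members tested in each library, as log2(CPM + 0.5) minus the mean over the 6 libraries, grouped by role with the AdWT libraries left of the vertical line and the AdKO libraries right of it. The column of AdWT replicate 1 is red across the Ifit, GTPase and effector genes, where it is the highest library for 3 of 3, 5 of 5 and 4 of 5 members, whereas it is the highest for 0 of the 4 receptors.

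The Ifit genes encode antiviral proteins, of which Ifit1 binds foreign RNA lacking the marks of the host cap and stops its translation. *Ifit1* was at 33.6, 16.5 and 22.0 CPM in AdWT and 24.0, 20.5 and 21.4 in AdKO. The AdKO libraries fell inside the range of AdWT, whose replicate 1 was the highest and replicate 2 the lowest of all 6. The means were 24.0 ± 8.73 and 22.0 ± 1.85 CPM (SD, n = 3 each), with a log2 fold change of -0.13 (95% interval -0.69 to 0.44, edgeR adjusted *p* = 0.925) that became 0.19 without AdWT replicate 1. *Ifit2* showed the same order within AdWT, at 53.5, 28.2 and 41.8 CPM against 37.5, 32.6 and 35.8 in AdKO. Its log2 fold change was -0.22 (95% interval -0.72 to 0.27), and 0.01 without AdWT replicate 1. *Ifit3* was at 48.2, 23.6 and 33.8 CPM in AdWT and 39.8, 36.2 and 31.7 in AdKO, with values of 0.03 and 0.33 in the same order. In all 3 genes the AdWT libraries thus ranged more widely than the AdKO libraries, with AdWT replicate 1 between 1.53 and 1.75 times the mean of the other AdWT libraries. The 3 genes lie close together on chromosome 19 of mm9, *Ifit2* at chr19:34625184-34650909, *Ifit3* at chr19:34658021-34663221 and *Ifit1* at chr19:34715361-34724499, and have similar sequences, so reads may be shared between them, and the part of shared reads in this likeness was not tested.

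Among the interferon-induced GTPases, which coat and break the vacuoles in which pathogens hide, 1 of the 5 tested had a log2 fold change above 0 and 4 below. *Gbp2* was at 259, 174 and 194 CPM in AdWT and 210, 197 and 198 in AdKO (log2 fold change -0.05, 95% interval -0.38 to 0.28), and it was 0.14 without AdWT replicate 1. *Irgm1*, a regulator of the other immunity-related GTPases and of autophagy, was at 81.7, 47.6 and 47.0 CPM in AdWT and 63.7, 53.0 and 54.2 in AdKO. All 3 AdKO libraries lay between AdWT replicate 1 and the other AdWT libraries. Its log2 fold change went from -0.04 (95% interval -0.55 to 0.46) to 0.27 without that replicate. *Igtp*, also called Irgm3, had 40, 10 and 16 counts in AdWT and 26, 24 and 17 in AdKO, and its log2 fold change of 0.04 (95% interval -1.19 to 1.26) rested on few reads and was 0.81 without AdWT replicate 1. *Gbp10* had the most negative log2 fold change of the members, -0.78 (95% interval -1.64 to 0.09, adjusted *p* = 0.851), from 43, 22 and 24 counts in AdWT and 20, 18 and 13 in AdKO. It was -0.39 without AdWT replicate 1. *Gbp9* and *Gbp10* are close copies on chromosome 5, and reads may have been split between them. Of the other members of this class, *Gbp8*, *Irgm2*, *Gbp2b* and *Mx1* had at most 6 counts in a library.

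**Figure D3:**
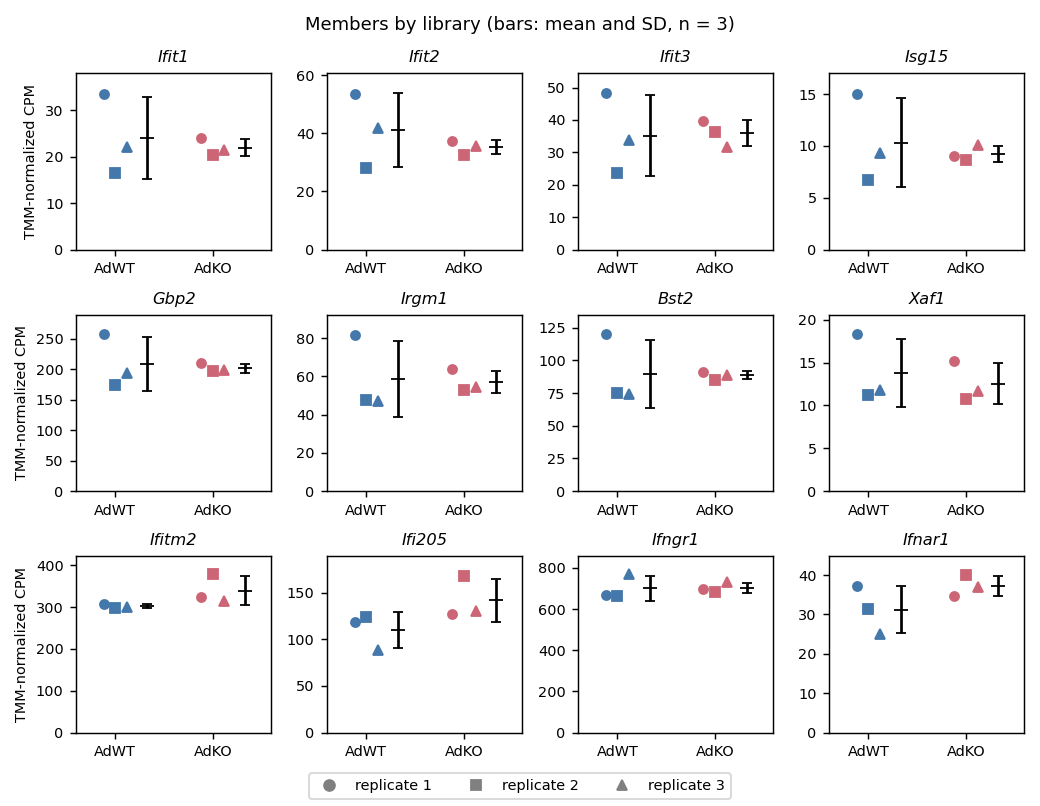
TMM-normalized CPM of 12 members in each library, with circles, squares and triangles for replicates 1, 2 and 3 and the mean and SD (n = 3) beside each group. For *Ifit1* to *Xaf1* the circle of AdWT lies above all other points, for *Ifitm2* and *Ifi205* every AdKO point lies above every AdWT point, and *Ifngr1* stays between 665 and 772 CPM.

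The Ifitm genes encode small membrane proteins that block the fusion of viruses with the cell. All 5 tested had a log2 fold change above 0, with a median of 0.25, and none passed the test. *Ifitm2* was at 308, 297 and 301 CPM in AdWT and 324, 380 and 315 in AdKO, so that the groups do not overlap (log2 fold change 0.17, 95% interval -0.03 to 0.37, edgeR adjusted *p* = 0.853, two-sided exact permutation *p* = 0.1). Without AdKO replicate 2, its highest library, the log2 fold change was 0.07. *Ifitm3*, the family member best known for blocking influenza virus, was at 298, 217 and 217 CPM in AdWT and 290, 328 and 276 in AdKO. AdWT replicate 1 overlapped the AdKO range, and the log2 fold change went from 0.29 (95% interval -0.04 to 0.61, adjusted *p* = 0.851) to 0.46 without it and to 0.20 without AdWT replicate 3. *Ifitm6*, with 26 to 62 counts a library, had a log2 fold change of 0.52 (95% interval -0.08 to 1.12) that was 0.30 without AdWT replicate 3, and no overlap between the groups. *Ifitm5*, a bone protein that is not known as an interferon target, is counted with the induced members by its name alone. *Ifitm5* and *Ifitm10* had 7 to 29 counts a library and values of 0.10 and 0.25, both of which changed sign when AdWT replicate 2 was left out. *Ifitm2*, *Ifitm3*, *Ifitm5* and *Ifitm6* lie in 1 cluster on chromosome 7 of mm9, from the start of *Ifitm5* at 148134862 to the end of *Ifitm6* at 148202791, and resemble each other, so shared reads may tie their values together.

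The other genes named Ifi are a mixed set. *Ifi205*, of the family of nuclear DNA-binding proteins that includes DNA sensors, had the smallest unadjusted *p* of the members, 0.0548 by edgeR (adjusted *p* = 0.851). The gene lies at chr1:175942129-175961886 of mm9. It was at 118, 124 and 88.3 CPM in AdWT and 127, 168 and 130 in AdKO, and the groups do not overlap, although AdWT replicate 2 and AdKO replicate 1 were nearly level. Its log2 fold change was 0.36 (95% interval -0.0096 to 0.73) and was 0.41 without AdWT replicate 1 and 0.21 without AdKO replicate 2. Its neighbours on chromosome 1, *Ifi203* and *Ifi204*, which are close copies, had values of -0.09 and 0.20, which with a library left out ranged from -0.32 to 0.20 and from 0.04 to 0.45. *Ifi30*, a lysosomal reductase that prepares antigens for presentation and is abundant in macrophages, was at 140, 82.1 and 54.6 CPM in AdWT and 98.7, 138 and 151 in AdKO (log2 fold change 0.49, 95% interval -0.27 to 1.24). It went to 0.92 without AdWT replicate 1 and to 0.21 without AdWT replicate 3. *Ifi44* had 207, 99 and 79 counts in AdWT and 122, 102 and 129 in AdKO. AdWT replicate 1 was 1.61 times the next highest library, and the log2 fold change was -0.11 with it and 0.44 without it.

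The Oas enzymes sense double-stranded RNA and make the short oligoadenylates that switch on RNase L. Of 11 members of the family, 5 were tested, and *Oas1e* was at 0 in every library. *Oas1a* was at 13.5, 9.13 and 8.15 CPM in AdWT and 12.3, 9.47 and 12.7 in AdKO, with a log2 fold change of 0.17 (95% interval -0.35 to 0.68) that was 0.41 without AdWT replicate 1 and 0.019 without AdWT replicate 3. *Oasl2*, *Oas1b* and *Oas3* were also highest in AdWT replicate 1, and their log2 fold changes went from -0.20 to 0.31, from -0.26 to -0.09 and from 0.11 to 0.59 without it. The value of *Oas3* was -0.23 without AdWT replicate 3 and -0.21 without AdKO replicate 3. *Oas1c* was not, and it ranged only between 9.96 and 12.5 CPM. The Oas1 genes are near copies in 1 cluster on chromosome 5, and their counts may have been split. The RNA sensors *Ddx58* (RIG-I), *Dhx58* (LGP2) and *Ifih1* (MDA5) had log2 fold changes of -0.23, 0.04 and 0.31, and each 95% interval held 0. Without AdWT replicate 1 these values were -0.12, 0.20 and 0.22, and with any 1 library left out they ranged from -0.38 to -0.12, from -0.16 (without AdKO replicate 1) to 0.20, and from 0.06 (without AdKO replicate 3) to 0.42.

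The other effectors tested, *Isg15*, *Isg20*, *Usp18*, *Bst2* and *Xaf1*, all had log2 fold changes below 0 with all 6 libraries, and none passed the test. *Isg15*, a ubiquitin-like protein that is joined to other proteins during an interferon response, was at 15.0, 6.69 and 9.29 CPM in AdWT and 8.99, 8.68 and 10.1 in AdKO. The log2 fold change was -0.15 (95% interval -0.82 to 0.51) and 0.22 without AdWT replicate 1. *Usp18*, which removes Isg15 and dampens type I signalling, was at 17.0, 13.2 and 12.7 CPM in AdWT and 14.6, 11.6 and 11.8 in AdKO (log2 fold change -0.18, and -0.03 without AdWT replicate 1). *Bst2*, or tetherin, which holds budding viruses at the cell surface, was at 120, 75.1 and 74.3 CPM in AdWT and 91.5, 85.2 and 89.1 in AdKO. As for *Irgm1*, every AdKO library lay between AdWT replicate 1 and the other AdWT libraries. The log2 fold change was -0.02 (95% interval -0.45 to 0.41), and it changed sign with library size scaling. Without AdWT replicate 1 it was 0.25. *Xaf1*, an antagonist of an inhibitor of cell death, was at 18.3, 11.2 and 11.8 CPM in AdWT and 15.2, 10.7 and 11.7 in AdKO, and its value went from -0.13 to 0.12. *Isg20*, an exonuclease that degrades viral RNA, did not share this order: it was at 8.30, 8.24 and 8.35 CPM in AdWT and 7.48, 5.26 and 7.32 in AdKO, without overlap (log2 fold change -0.31, 95% interval -0.72 to 0.10, -0.31 without AdWT replicate 1 and -0.17 without AdKO replicate 2).

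Most induced members tested were thus highest in 1 library of the AdWT group. Over the 32 induced members tested, the median ratio of AdWT replicate 1 to the mean of AdWT replicates 2 and 3 was 1.54, and to the mean of the AdKO libraries 1.34. Over the 14 receptors and factors these medians were 1.01 and 0.989, and over all rows 0.996 and 0.991. AdWT replicate 1 was the highest library for 20 of the 32 induced members (62.5%), for 4 of the 14 receptors and factors (28.6%) and, as above, for 14.6% of all rows. It exceeded the next library by at least 1.2 times for 14 of the 46 members (30.4%), against 3.58% of all rows. The number of members with AdWT replicate 1 highest was 24 with RLE or upper quartile scaling, 25 with library size alone and 23 with the rows of a symbol summed, where the shares over all rows were 14.9%, 15.4%, 22.1% and, over symbols, 14.5%. The ISRE letters stood in 11 of the 20 members with a promoter entry that were highest in this library (55.0%) and in 7 of the 19 that were highest in another (36.8%), and the gamma-activated site in 5 of the 20 (25.0%) and 8 of the 19 (42.1%).

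**Figure D4:**
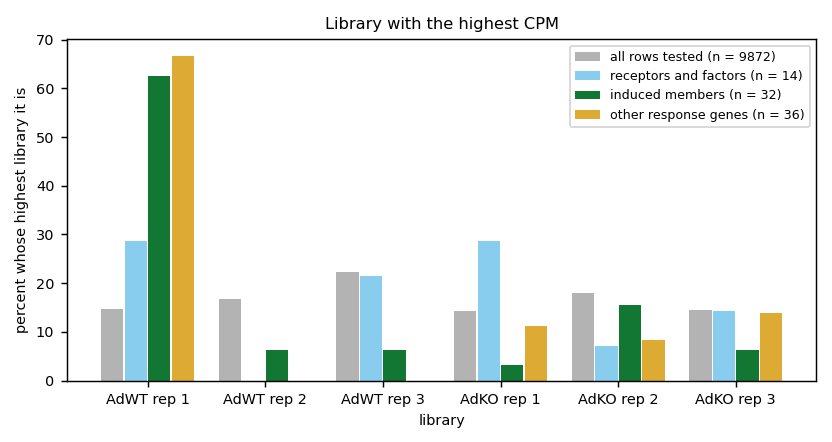
Percent of genes for which each library has the highest CPM of the 6, for all rows tested, the receptors and factors, the induced members and the interferon-response genes outside the rule. AdWT replicate 1 is highest for 62.5% of the induced members and 66.7% of the other response genes, against 14.6% of all rows and 28.6% of the receptors and factors.

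The members that followed this pattern most closely were ranked by Pearson's *r* with *Ifit1* over the 6 libraries, as a description with no *p*, since the libraries share their depth and scaling. *Gbp2* was closest (*r* = 0.987), followed by *Isg15* (0.955), *Ifit2* (0.950), *Ifit3* (0.935) and *Igtp* (0.906). The value was over 0.8 for 17 of the 46 members (37.0%, *Ifit1* itself included) and for 1.98% of all rows. *Stat2* was the only one of the receptors and factors above 0.8 (0.842). *Ifitm2* (-0.05), *Ifngr1* (-0.10), *Ifi205* (-0.17) and *Ifi204* (-0.52) were among the members that did not follow it. With the group means removed, the median correlation between pairs of genes was 0.509 for the induced members and -0.10 for the receptors and factors, against -0.0005 for all rows.

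AdWT replicate 1 was picked out for its high values, so leaving it out raises the log2 fold changes of these members by construction, and nothing is read from that fit. The log2 fold change was then above 0 for 31 and below 0 for 15 of the 46, with a median of 0.18, and 12 members changed direction. The unadjusted edgeR *p* was under 0.05 for 6 members (13.0%), all higher in AdKO (*Bst2*, *Ifi30*, *Ifi44*, *Ifitm3*, *Ifnar1* and *Irgm1*). Of all 10204 rows in that fit, 11.8% were called, 735 higher in AdKO and 473 lower. The smallest edgeR adjusted *p* of a member was 0.392. Without AdWT replicate 2, by contrast, 16 members lay above 0 and 30 below.

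Interferon-pathway genes outside the rule were taken from a list of 110 symbols, of which 86 had a row and 51 were tested. None had an edgeR adjusted *p* under 0.05, 30 lay above 0 and 21 below, and the median log2 fold change was 0.05. At an unadjusted *p* under 0.05 there were 3 of the 51, all higher in AdKO, against 5.73% of all rows called and 2.76% called higher. *Ifnlr1*, a chain of the lambda interferon receptor with 10 to 40 counts a library, had a log2 fold change of 0.97 (edgeR adjusted *p* = 0.851). *Socs3*, an inhibitor of Jak signalling, had a value of 0.40 (edgeR adjusted *p* = 0.851). *Lgals9*, a galectin with 5 to 13 counts a library, had a value of 0.92 (edgeR adjusted *p* = 0.851). Of the 18 interferon ligands with a row, 14 were at 0 in every library, and the other ligands, *Ifnb1*, *Ifne*, *Ifnk* and *Ifnz*, had at most 2 counts in any library. *Ifng*, the gene of interferon gamma, was on the list but had no row among those analysed here, so its level is not known. The kinase *Jak1*, shared by all interferon receptors, was at 584 ± 13.3 CPM in AdWT and 567 ± 6.03 in AdKO (SD, n = 3 each, log2 fold change -0.04). *Tyk2*, the kinase of Ifnar1, had 6 to 20 counts a library and a value of 0.41 (95% interval -0.59 to 1.41).

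The response genes on that list were not chosen by the symbol rule, but the list was made with earlier results of these data known. Of 36 tested, 24 (66.7%) were highest in AdWT replicate 1, against 14.6% of all rows. The median was 1.44 times the mean of the other AdWT libraries and 1.19 times the mean of AdKO. *Tgtp2*, a GTPase induced by interferon gamma, had 228, 80 and 58 counts in AdWT and 65, 70 and 68 in AdKO. *Cxcl9*, a chemokine that attracts T cells, had 2447, 1634 and 1414 counts in AdWT and 1611, 1779 and 1495 in AdKO. *Psmb8*, a subunit of the immunoproteasome, had 2378, 1621 and 1550 counts against 1929, 2058 and 1982. *Tgtp2* and *Cxcl9* stood above every other library in AdWT replicate 1 alone, whereas the AdKO libraries were closer to AdWT replicate 1 for *Psmb8*. *Eif2ak2*, the kinase PKR, was not highest there (1212, 1284 and 1273 counts in AdWT, 1061, 1000 and 1453 in AdKO).

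Markers of other cell types moved with AdWT replicate 1 within the AdWT group. Of 14 macrophage markers, 11 had a row, and they summed to 1702, 1326 and 951 CPM in AdWT replicates 1 to 3, and to 1505, 1796 and 1758 CPM in AdKO, with *Emr1* at 0. AdWT replicate 1 was thus 1.49 times the other AdWT libraries but level with AdKO (1.01 times), where the Ifit genes were 1.63 and 1.45 times. T cell markers (9 of 9 with a row, *Cd8a* at 0) summed to 151, 122 and 97.7 CPM in AdWT and 122, 153 and 128 in AdKO, of which *Thy1*, a surface protein also found on stromal cells, made up 75.9% to 88.5%. Without *Thy1*, a sum formed after the values had been seen, they were at 36.3, 21.4 and 15.4 CPM in AdWT and 14.0, 20.8 and 16.1 in AdKO. AdWT replicate 1 was then 1.97 times the other AdWT libraries and 2.14 times AdKO, and of the 7 T cell markers tested, *Thy1* had a log2 fold change above 0 and the other 6 below. Dendritic cell markers (6 of 8 with a row, *Siglech* and *Ccr9* at 0) summed to 101, 73.3 and 40.6 CPM and to 85.5, 91.4 and 129 CPM, mostly from *Itgax*, which macrophages also carry. Without *Itgax* they were highest in AdWT replicate 1, at 11.7 CPM against 6.35 to 9.68 in the others. B cell markers (6 of 7 with a row) were highest in AdWT replicate 1 (20.6, 9.31 and 4.34 CPM in AdWT against 9.54, 12.2 and 14.7 in AdKO). *Blnk* made up 56.2% to 91.8% of that sum, and without it the values were 9.02, 1.13 and 1.40 CPM in AdWT and at most 3.75 in AdKO, with AdWT replicate 1 at 7.11 times the other AdWT libraries and 3.94 times AdKO. It was also the highest library for natural killer cell markers (6 of 7, *Klrb1c* at 0), at 5.03, 2.86 and 2.54 CPM against 2.54, 3.49 and 2.22. Endothelial markers (4 of 6 with a row) summed to 1331, 1000 and 923 CPM in AdWT and 1116, 1279 and 896 in AdKO. *Cdh5* made up 84.5% to 87.1% of that sum. Without it AdKO replicate 2 was highest, at 186 CPM against 177 CPM in AdWT replicate 1. Neutrophil markers (3 of 6, *Retnlg* at 0) lay between 15.8 and 36.8 CPM, with AdKO replicate 2 highest. Adipocyte markers were lowest in AdWT replicate 1 within the AdWT group, at 0.880 times the other AdWT libraries. The part of these cells in the values of the induced members was not tested.

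**Figure D5:**
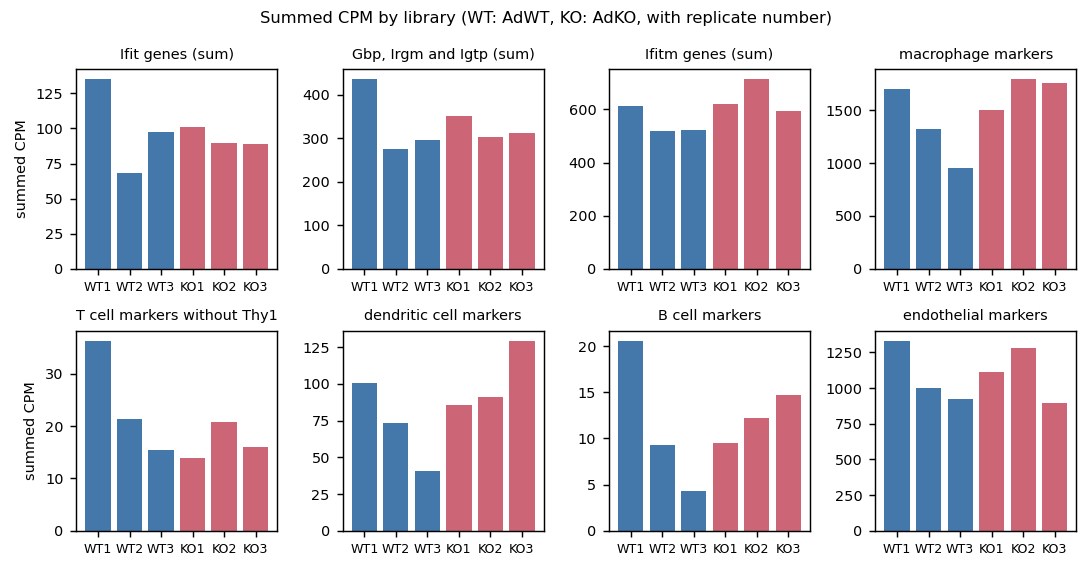
Summed TMM-normalized CPM in each library of 3 groups of induced members and of markers of 5 other cell types, as bars from 0 with AdWT in blue and AdKO in red. AdWT replicate 1 is the highest bar for the Ifit genes and the GTPases and for B cell, endothelial and, with *Thy1* left out, T cell markers (36.3 CPM), whereas macrophage markers reach 1796 CPM in AdKO replicate 2, above the 1702 CPM of AdWT replicate 1. The endothelial bars are mostly *Cdh5*, without which AdKO replicate 2 is the highest library.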

How the data were processed

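RNA was extracted from iWAT of 3 mice labelled *Lexis*-AdWT and 3 labelled *Lexis*-AdKO, each a separate replicate by its label. Libraries were made with the KAPA Stranded kit, and the authors deposited raw read counts, not normalized, from HISAT2 alignments to mm9. The counting tool, its annotation and its strand setting were not given in the sources used here, so reads from overlapping or near-identical genes may be shared or lost. The submitters' notes name DESeq2.

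Of 37024 rows, 9872 passed edgeR's filterByExpr by group. Groups were compared with TMM scaling, glmQLFit and glmQLFTest in edgeR 4.0.16 (R 4.3.3) and Benjamini-Hochberg adjustment at 0.05, and the common biological coefficient of variation was 0.196. Intervals of a log2 fold change use its size over the square root of F as the standard error, with the total degrees of freedom of the fit. Single values were tested by exact permutation, two-sided, of log2(CPM + 0.5). The code was tested on simulated data. Gene positions were read from GENCODE vM1 and promoters from RefSeq. Alternatives were DESeq2 1.42.0, RLE, upper quartile and library size scaling, 2 other filters, a fit blocked on replicate number, summed rows per symbol, a robust fit, and each library left out.

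The members and lists were chosen with earlier results of these data known. Named were the receptors, the main Stat and Irf factors, the member with the highest total in each family, selected effectors, and the 3 largest and 3 smallest log2 fold changes. *Ifit1*, *Ifit3*, *Isg20*, *Stat6*, *Ifi44* and other members outside that rule were named after their values were seen. The ChIRP-Seq, snRNA-Seq and qPCR data of the study were not used here. Values of some members are left out of the text and figures.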

Additional observations from a re-analysis of the deposited data

How the results depend on the processing

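No member reached an adjusted *p* under 0.05 under any setting tried. At an unadjusted *p* under 0.05, the count of members was 1 of 46 with library size scaling (*Ifi205*, against 4.81% of all rows), 2 of 61 with DESeq2 (*Ifi205* and *Iigp1*, against 2.42%), 3 of 61 with a filter of at least 1 count in any library (these and *Ifitm3*, against 4.32%), 1 of 46 with the replicate number as a block (*Ifi205*, against 4.23%), and 0 to 6 with each library left out, 6 without AdWT replicate 1 (against 11.8%) and 3 without AdWT replicate 2 (*Gbp10*, *Ifi205* and *Ifit2*, against 3.2%). Over all rows, 17 had an adjusted *p* under 0.05 with DESeq2, 1 with the filter of at least 1 count, and 0 to 1 with a library left out, and 329 to 1208 an unadjusted *p* under 0.05 with a library left out. The median log2 fold change of the members lay between -0.13 and 0.18, the higher value without AdWT replicate 1. Replicate numbers were shared by the groups. Deviations of same-numbered libraries had correlations of -0.08, -0.13 and 0.33, and only replicate 3 matched its own number best. With 3 libraries a group, these values cannot decide whether same-numbered libraries were paired. The cause of the differences between settings was not tested.

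For 27 named members, 235 of 242 values with all libraries kept had the same direction. The others were *Bst2* at 0.015 with library size scaling and 0.017 with the replicate block, *Ifi44* at 0.00060 with the replicate block, and *Ifngr1* at -0.0088 with RLE scaling, -0.0075 with upper quartile scaling, -0.011 with DESeq2 and -0.00039 with the filter of at least 1 count. The split of the members into higher and lower was 20 and 26 with RLE or upper quartile scaling and 24 and 22 with library size scaling. With a library left out, 22 of these members' 162 values changed direction, and 25 of all 46 members tested changed direction at least once. The log2 fold changes ranged from -0.15 to 0.25 for *Bst2*, -0.17 to 0.14 for *Gbp2*, -0.36 to 0.44 for *Ifi44*, -0.34 to 0.19 for *Ifit1*, -0.44 to 0.013 for *Ifit2*, -0.20 to 0.33 for *Ifit3*, -0.072 to 0.28 for *Ifnar2*, -0.038 to 0.070 for *Ifngr1*, -0.026 to 0.069 for *Ifngr2*, -0.34 to 0.81 for *Igtp*, -0.19 to 0.27 for *Irgm1*, -0.40 to 0.22 for *Isg15* and -0.30 to 0.12 for *Xaf1*. Counts of non-overlapping members and of members highest in AdWT replicate 1 under other scalings were added after the data had been seen, and the former were 4 with RLE or upper quartile scaling (against 11.8% and 12.0% of all rows), 5 with library size scaling (11.6%) and 7 of 46 with the rows of a symbol summed (11.8% of symbols). With 3 libraries a group, the precision is that of the intervals printed above.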

Other observations

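*Ifi27l2b*, which was too low for a test, had 32 counts in AdWT replicate 3 and between 2 and 7 in each of the other 5 libraries. It was named after its values were seen, and it belongs to the Ifi27 family, whose other member by the symbol rule, *Ifi27*, was at 0 in every library.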
